A study of Mus musculus with 12 samples.

Results

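The transcripts of 10 genes of hepatic insulin signalling were followed in the livers of fed and fasted mice: the insulin receptor Insr, its substrates Irs1 and Irs2, the PI3-kinase regulatory subunit Pik3r1, the kinases Akt1 and Akt2, the transcription factors Foxo1 and Foxo3, and the receptor-binding adaptors Grb10 and Grb14. They were taken by symbol from a table of 48795 genes, and all 10 were among the 13812 genes with enough counts to be tested. Liver RNA came from 12 female mice, 4 months old and fed normal chow, described in the labels as littermates of matched sex and age. The 4 groups of 3 mice were NTS WT fed, NTS WT fasted, NTS KO fed and NTS KO fasted. Fed mice ate ad libitum and fasted mice went without food for 22 h. NTS KO mice carry a whole-body deletion of Nts, which encodes the gut and brain peptide neurotensin, so the loss is not limited to one tissue. Each library is 1 mouse, named below by its number in the labels.

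The Nts transcript itself went against the genotype labels. It had 0 counts in each of the 6 libraries labelled NTS WT. In the fed livers labelled NTS KO it had 46, 40 and 15 counts (mice 277, 303 and 319), and in the fasted ones 12, 4 and 18 counts (mice 284, 290 and 295). The counts do not say which part of Nts the reads covered, and which part the allele lacks is not given in the sources used here. Genotypes are therefore those of the labels throughout, and every direction between genotypes below rests on them. Libraries held 21999647 to 45273069 expected counts, that is, estimated numbers of reads that can be fractional. Summed levels of 8 hepatocyte markers (among them Alb, Apoa1 and Cps1) lay between 116704 and 148358 CPM (counts scaled to a common library total) in every liver, whereas those of 5 adipocyte markers did not exceed 0.260 CPM.

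Insulin binds its receptor, a tyrosine kinase, which phosphorylates the docking proteins IRS1 and IRS2. These recruit PI3-kinase, whose lipid product activates AKT, and AKT phosphorylates FOXO factors and keeps them out of the nucleus. In the fasted liver insulin is low, FOXO1 is nuclear and genes of gluconeogenesis are switched on, while the lipogenic and glycolytic genes that insulin induces are low. Irs2 is itself a textbook FOXO target, and GRB10 and GRB14 bind the activated receptor and inhibit its kinase. Much of this pathway is regulated by phosphorylation, which transcript counts do not measure. In whole liver, fewer cells of a type and less RNA per cell cannot be told apart.

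The stretches upstream of the substrate genes are shown because Irs1 and Irs2 take the same place in the pathway and FOXO factors bind DNA at short, known motifs. RefSeq (GRCm38.p6, the build of the count table) lists windows from 250 bases before to 50 after each start site for 9 of the 10 genes, 15 windows in all, and none for Insr. Both strands of each window were searched for TGTTTTG (the core of the insulin response element), for TGTTTAC (a forkhead core) and for CACGTG (the palindromic E-box). The first of these was in 6.28% of all 32851 windows, the second in 3.65% and the third in 7.15%. Among the 15 windows, TGTTTTG was in those of Irs1 and Irs2, CACGTG in those same 2, and TGTTTAC in 1 of Akt1 (bases -161 to -155). The 250 bases before the start are printed 5′ to 3′ on the gene's strand, with matches in capitals. They are followed by G6pc, the glucose-6-phosphatase gene whose promoter is a classical insulin response region, and by Grb14, which has no match and whose transcript is described first below. The windows are chr1:82291440-82291689 (minus strand), chr8:11008930-11009179 (minus), chr11:101367466-101367715 (plus) and chr2:65022767-65023016 (minus).
Irs1: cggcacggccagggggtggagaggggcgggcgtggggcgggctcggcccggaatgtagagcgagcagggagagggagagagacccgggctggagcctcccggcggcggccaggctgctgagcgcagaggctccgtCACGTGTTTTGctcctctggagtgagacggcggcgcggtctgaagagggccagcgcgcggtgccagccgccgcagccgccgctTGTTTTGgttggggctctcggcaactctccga
Irs2: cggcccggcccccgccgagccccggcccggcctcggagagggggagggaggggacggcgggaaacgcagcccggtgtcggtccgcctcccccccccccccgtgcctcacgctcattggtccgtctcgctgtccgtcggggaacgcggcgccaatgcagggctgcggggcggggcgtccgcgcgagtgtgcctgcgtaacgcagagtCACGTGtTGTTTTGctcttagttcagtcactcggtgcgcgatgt
G6pc: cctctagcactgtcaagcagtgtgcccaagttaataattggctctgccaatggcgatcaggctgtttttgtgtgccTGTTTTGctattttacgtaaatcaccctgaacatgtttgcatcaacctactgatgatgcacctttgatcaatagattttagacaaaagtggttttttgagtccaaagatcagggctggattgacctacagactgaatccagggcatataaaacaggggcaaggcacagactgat
Grb14: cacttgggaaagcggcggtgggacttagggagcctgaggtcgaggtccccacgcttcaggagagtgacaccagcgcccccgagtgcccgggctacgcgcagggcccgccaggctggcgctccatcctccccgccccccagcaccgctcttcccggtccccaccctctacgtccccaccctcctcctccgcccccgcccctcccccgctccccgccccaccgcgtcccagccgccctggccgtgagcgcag

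In Irs1, TGTTTTG lay at bases -111 to -105 and again at -32 to -26 from the start site, and CACGTG at -115 to -110 overlapped the upstream copy. In Irs2, CACGTG at -44 to -39 was followed by TGTTTTG at -37 to -31. In G6pc, TGTTTTG lay at -174 to -168. These are matches of letters and not measured binding sites. The RefSeq start of Grb14 lay 2221 bases inside the gene as the count table bounds it and that of Irs2 471 bases outside it, so other start sites are possible.

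Levels of different genes can be compared only per length. Counts were scaled for library size by the trimmed mean of M-values (TMM), giving CPM, and divided by the length of the longest annotated transcript. Averaged over the 12 livers, Grb14 was the highest of the 10 genes at 16.6 CPM per kb, and Akt2 (11.5), Insr (9.87) and Akt1 (8.45) came next. Irs2 (6.27) and Pik3r1 (5.56) took the middle of the order, ahead of Foxo3 (3.78) and Foxo1 (3.65). Irs1 was at 1.71 CPM per kb, below Irs2 in all 4 groups, and Grb10 was lowest at 0.374. The order depends on the transcript length used, which was 2797 bases for Grb14, 5355 for Akt1, 9385 for Insr and 8169 for Akt2. Before division by length, the means were 46.4 CPM for Grb14, 45.3 for Akt1, 92.6 for Insr and 93.9 for Akt2. Which transcripts of each gene were present was not examined.

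Several neighbours in this order did not differ beyond their spread. Foxo3 and Foxo1 traded places between groups, with 3.81 ± 0.695 against 3.45 ± 0.525 CPM per kb in NTS WT fed livers and 3.51 ± 0.0705 against 3.84 ± 0.747 in NTS WT fasted livers (mean ± SD, n = 3). Irs2 was below Pik3r1 in fed livers (4.75 ± 2.17 against 6.11 ± 1.18 in NTS WT) and above it in fasted livers (7.50 ± 0.780 against 5.26 ± 1.99). In NTS KO fasted livers Akt2 and Insr were level, at 10.9 ± 0.867 and 10.6 ± 0.981 CPM per kb. Grb14 led in every group, but in fed livers of both genotypes it overlapped Akt2. It was at 14.7 ± 3.34 against 12.4 ± 0.294 in NTS WT and at 12.7 ± 1.84 against 12.3 ± 0.472 in NTS KO.

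**Figure D1:**
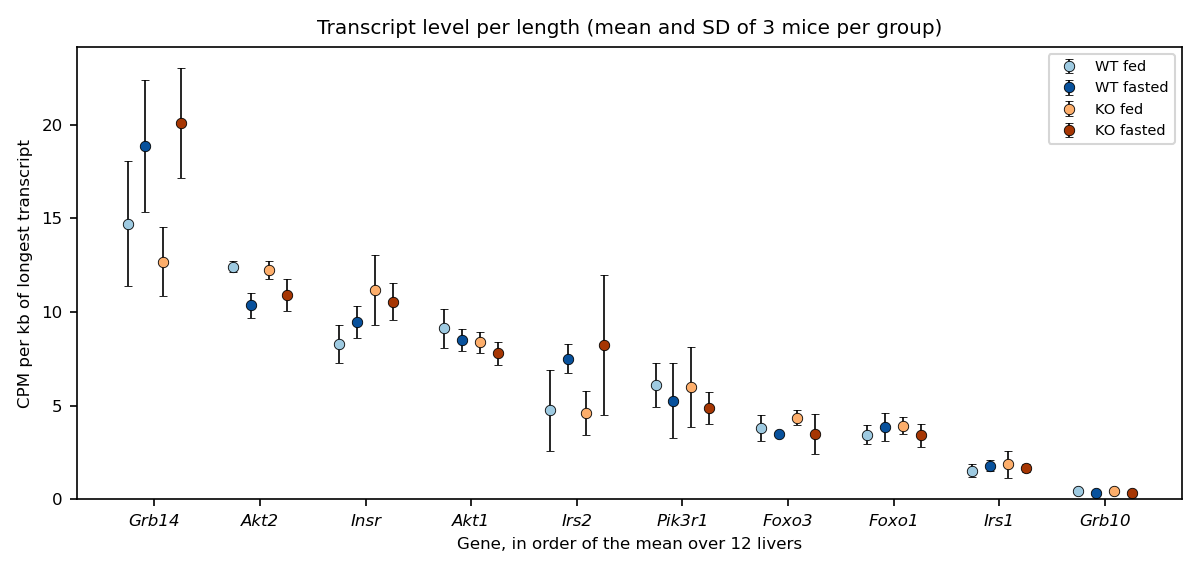
Level per length (TMM CPM per kb of the longest transcript, linear axis) of the 10 genes, ordered by their mean over 12 livers; points are means and bars SDs of 3 mice per group. Grb14 had the highest mean in each group (12.7 to 20.1), and Grb10 the lowest (0.299 to 0.445).

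The genes differed in how far mice of 1 group lay apart. Akt2 was among the steadiest genes of the liver, with a within-group SD of 0.08 on the log2 CPM scale, at percentile 1.48 of the 13812 genes tested, and Akt1 followed at 0.12. Irs2 was the most variable of the 10 at 0.59, at percentile 90.7. Pik3r1 (0.41) and Irs1 (0.37) were also above the median of all genes tested (0.24), whereas Insr (0.18) was below it. Foxo1 (0.24), Grb10 (0.24), Foxo3 (0.26) and Grb14 (0.27) were near it. The SD sets what could be detected with 3 mice per group, so a difference of a given size was harder to see in Irs2 than in Akt2.

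**Figure D2:**
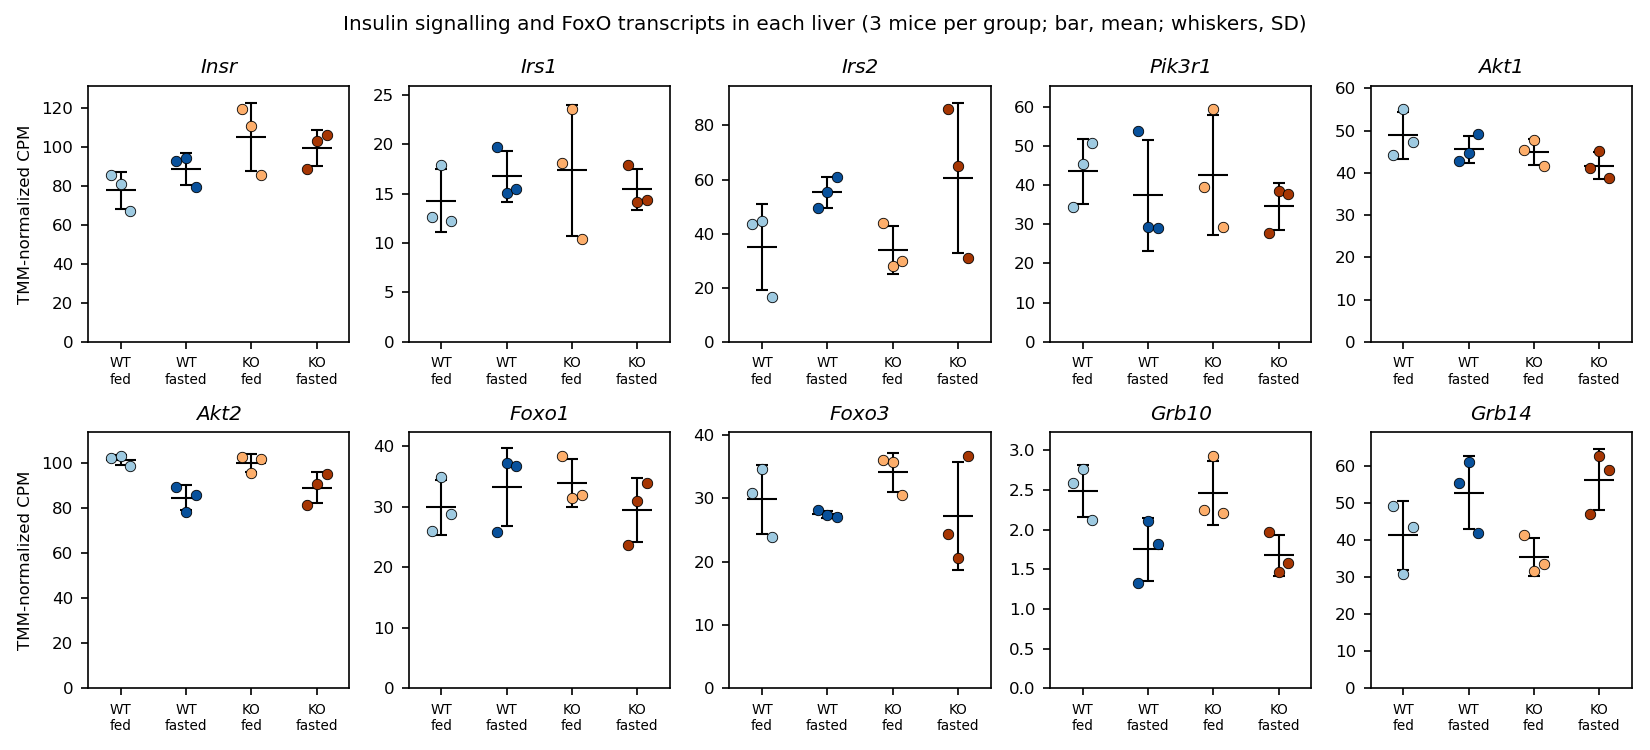
TMM CPM of each gene (linear axes from 0, a scale per panel) in every liver; each point is 1 mouse, horizontal bars are means and whiskers SDs of 3 mice. The fasted points of Akt2 and Grb10 lie below the fed points in both genotypes, and those of Irs2 are widely spread in NTS KO fasted livers (31.1 to 86.0).

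The first comparison asked how the pathway's transcripts differed between fasted and fed livers of each genotype. Groups were compared with edgeR's quasi-likelihood test, with p-values adjusted over all genes tested (Benjamini-Hochberg) and a threshold of 0.05. In NTS WT livers 0 of the 10 genes passed, beside 18.1% of all genes tested, and DESeq2 also called 0. There 1 of the 10 genes (Akt2) had an unadjusted edgeR p under 0.05, beside 4489 of the 13812 genes tested. In NTS KO livers 1 of the 10 passed, Grb14, beside 16.8% of all genes tested, and DESeq2 also called 1. Fasted and fed livers did not overlap for 3 of the 10 genes in NTS WT, beside 36.0% of all genes, and for 3 of the 10 in NTS KO, beside 35.2%. The median log2 fold change of the 10 genes was 0.03 in NTS WT and -0.17 in NTS KO livers, against -0.0032 and -0.011 over all genes tested.

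Grb14 (ENSMUSG00000026888, chr2:64912476-65024987 in GRCm38), an adaptor that inhibits the receptor kinase, was the gene that rose in fasted NTS KO livers. It was at 41.3, 31.6 and 33.6 CPM in the fed livers labelled NTS KO (mice 277, 303 and 319) and at 47.0, 62.7 and 58.9 CPM in the fasted ones (mice 284, 290 and 295). Every fasted liver was above every fed liver, with mouse 284 the closest to the fed group. The difference was 0.66 ± 0.19 on the log2 scale (SE, 95% interval 0.26 to 1.07), 1.58-fold, with an edgeR adjusted p of 0.0282. In NTS WT livers Grb14 was at 49.2, 30.9 and 43.5 CPM when fed (mice 254, 257 and 323) and at 55.4, 61.1 and 41.9 CPM when fasted (mice 265, 282 and 322). There the groups overlapped, since fasted mouse 322 lay below fed mice 254 and 323. The NTS WT difference was 0.36 ± 0.19 (edgeR adjusted p = 0.209), and the fasting differences of both genotypes were 0.31 apart (95% interval -0.27 to 0.88, adjusted p = 0.901), so they were not shown to differ. With 3 mice per group the call rested on single mice: it was lost without mouse 303 (log2 fold change 0.60, edgeR adjusted p = 0.0942), 319 (0.63, adjusted p = 0.0679), 290 (0.58, adjusted p = 0.102) or 295 (0.63, adjusted p = 0.0751).

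Grb10 (ENSMUSG00000020176, chr11:11930508-12038683 in GRCm38), the other receptor-binding adaptor, is imprinted and scarce in adult liver, with 28 to 85 counts per library. Fed livers had 2.59, 2.76 and 2.13 CPM in NTS WT (mice 254, 257 and 323) and 2.25, 2.93 and 2.22 CPM in NTS KO (mice 277, 303 and 319). Fasted livers had 1.33, 2.12 and 1.82 CPM in NTS WT (mice 265, 282 and 322) and 1.97, 1.47 and 1.58 CPM in NTS KO (mice 284, 290 and 295). All 6 fasted livers were below all 6 fed livers, and the gap between mice 282 and 323 was the narrowest. Neither genotype's difference passed on its own (log2 fold change -0.50 ± 0.23, adjusted p = 0.160 in NTS WT, and -0.56 ± 0.24, adjusted p = 0.119 in NTS KO, both by edgeR).

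Akt2 (ENSMUSG00000004056, chr7:27591552-27640826 in GRCm38), the AKT isoform that carries most of insulin's metabolic signal in liver, showed the same order of groups with a smaller difference. It was at 102, 103 and 98.8 CPM in fed NTS WT livers and at 89.6, 78.6 and 85.7 CPM in fasted ones. The NTS KO livers had 103, 95.7 and 102 CPM when fed and 81.5, 91.0 and 95.3 CPM when fasted. All fasted livers lay below all fed livers, by a narrow margin in NTS KO, where fasted mouse 295 had 95.3 and fed mouse 303 had 95.7 CPM. The log2 fold changes were -0.26 ± 0.11 in NTS WT (edgeR adjusted p = 0.103) and -0.17 ± 0.11 in NTS KO (adjusted p = 0.312). Akt1, the more widely expressed isoform, overlapped between fasted and fed livers in both genotypes, with 38.8 to 55.0 CPM over the 12 livers. Its log2 fold changes were -0.10 (95% interval -0.35 to 0.15) in NTS WT and -0.11 (-0.36 to 0.14) in NTS KO.

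Irs2 (ENSMUSG00000038894, chr8:10984681-11008458 in GRCm38), the substrate whose gene FOXO factors activate, had the largest mean differences of the 10 genes in both genotypes, yet did not pass. In NTS WT livers it was at 43.5, 44.8 and 16.5 CPM when fed (mice 254, 257 and 323) and at 49.4, 55.4 and 60.9 CPM when fasted (mice 265, 282 and 322). In NTS KO livers it was at 43.9, 28.0 and 29.7 CPM when fed (mice 277, 303 and 319) and at 86.0, 65.0 and 31.1 CPM when fasted (mice 284, 290 and 295). The NTS WT groups did not overlap, with fed mouse 323 far below the other fed mice. The NTS KO groups overlapped because fasted mouse 295, the most deeply sequenced library, was within the fed range. The log2 fold change was 0.66 (95% interval -0.27 to 1.59, edgeR adjusted p = 0.310) in NTS WT and 0.84 (-0.10 to 1.77, adjusted p = 0.204) in NTS KO. These intervals include both 0 and 1.

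Irs1 (ENSMUSG00000055980, chr1:82233101-82291416 in GRCm38), the other substrate, was at 12.2 to 18.0 CPM in fed and 15.1 to 19.7 CPM in fasted NTS WT livers. NTS KO livers had 10.4 to 23.6 CPM when fed and 14.2 to 17.9 CPM when fasted, so that the fasted values lay inside the fed range. Its log2 fold changes were 0.23 (95% interval -0.32 to 0.77) and -0.17 (-0.71 to 0.37), and the latter became 0.12 without fed mouse 303. The ratio of Irs2 to Irs1 counts, which needs no scaling between libraries, was 3.45, 2.49 and 1.35 in fed and 2.50, 3.67 and 3.94 in fasted NTS WT livers. In NTS KO livers it was 2.42, 1.19 and 2.86 when fed and 4.81, 4.59 and 2.16 when fasted. The ratio overlapped between fasted and fed livers of both genotypes. Taken as geometric means, the fasted ratio was 1.46-fold the fed ratio in NTS WT (exact two-sided permutation p = 0.2, n = 3 and 3) and 1.80-fold in NTS KO (exact p = 0.3), where 0.1 is the smallest p this design allows. In NTS WT the log2 difference of 0.55 fell to 0.17 without fed mouse 323, and in NTS KO the 0.85 became 0.46 without fed mouse 303.

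Insr (ENSMUSG00000005534, chr8:3122061-3279617 in GRCm38) was at 66.9 to 85.2 CPM in fed and 79.4 to 94.1 CPM in fasted NTS WT livers, and the groups overlapped. Its log2 fold change with fasting was 0.19 (95% interval -0.12 to 0.51) in NTS WT and -0.08 (-0.40 to 0.23) in NTS KO. Pik3r1, whose product p85 alpha holds the PI3-kinase catalytic subunit at the IRS proteins, ranged from 27.7 to 59.3 CPM over the 12 livers. Its log2 fold changes of -0.22 (-0.87 to 0.43) and -0.30 (-0.95 to 0.35) had wide intervals, and that in NTS KO became 0.021 without fed mouse 303.

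Neither Foxo1 nor Foxo3 passed the edgeR test between fasted and fed livers of either genotype. Foxo1, the main FoxO factor of hepatic gluconeogenesis, was at 26.0 to 34.9 CPM in fed and 25.8 to 37.2 CPM in fasted NTS WT livers, and at 31.4 to 38.4 and 23.7 to 34.0 CPM in NTS KO livers. Its log2 fold changes were 0.15 (95% interval -0.22 to 0.53) and -0.20 (-0.57 to 0.17). Foxo3 was at 30.9, 34.7 and 23.9 CPM in fed NTS WT livers and at 28.1, 27.3 and 27.0 CPM in fasted ones. For NTS KO livers it was at 36.0, 35.8 and 30.5 CPM when fed and at 24.4, 20.5 and 36.7 CPM when fasted. Fasted mouse 295 was the highest of the 12 livers, while fasted mice 284 and 290 were below all fed NTS KO livers. In NTS WT the log2 fold change was -0.12 (-0.52 to 0.28). The NTS KO log2 fold change was -0.32 (-0.72 to 0.08, edgeR adjusted p = 0.266), and without mouse 295 it was -0.60 with an edgeR adjusted p of 0.0289. It passed in that 1 of 12 alternatives alone, over which it ranged from -0.60 to -0.15 (adjusted p up to 0.662, by edgeR or DESeq2).

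**Figure D3:**
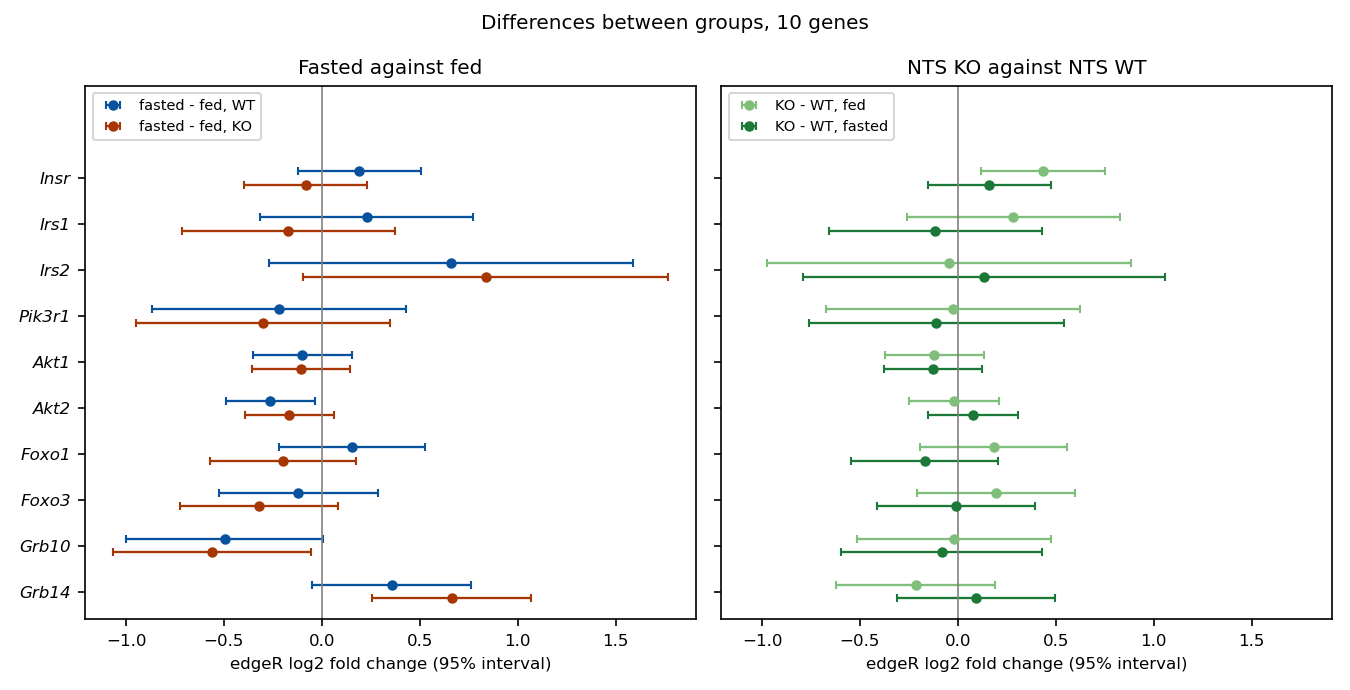
edgeR log2 fold changes of the 10 genes with 95% intervals, fasted against fed in each genotype (left) and NTS KO against NTS WT in each feeding state (right); 3 mice per group, labels as deposited. Most intervals include 0. Those that do not are Grb14 (0.26 to 1.07) and Grb10 (-1.07 to -0.054) in fasted against fed NTS KO livers, Akt2 in fasted against fed NTS WT livers (-0.49 to -0.035) and Insr between fed genotypes (0.12 to 0.75). Intervals are not adjusted for the number of genes.

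Because Grb10, Grb14 and Akt2 had the same sign in both genotypes, the fasting difference was also taken as the mean of the NTS WT and NTS KO differences in the same edgeR model, with 6 fasted and 6 fed livers. This comparison was chosen after those values had been seen, and Irs2, Pik3r1, Akt1 and Foxo3 also had the same sign in both genotypes. In it 3 of the 10 genes passed, beside 32.8% of all genes tested. Grb14 rose by 0.51 ± 0.13 (log2, edgeR adjusted p = 0.00985), Grb10 fell by 0.53 ± 0.17 (adjusted p = 0.0256) and Akt2 fell by 0.21 ± 0.07 (adjusted p = 0.0418). Fasted and fed livers did not overlap for 2 of the 10 genes, Grb10 and Akt2, beside 15.9% of all genes. Irs2 was higher by 0.75 (95% interval 0.09 to 1.41), with an edgeR adjusted p of 0.0798 that became 0.0207 (log2 fold change 0.91) without mouse 295. Foxo3 passed too without that mouse (-0.36, adjusted p = 0.0230). Each of these 2 genes passed in that 1 of 17 alternatives alone. Over the 17, Irs2 ranged from 0.58 (without mouse 323) to 0.91 and Foxo3 from -0.36 to -0.13. Their adjusted p reached 0.166 and 0.459 (by edgeR or DESeq2).

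None of these differences reached 1 on the log2 scale, so a fold minimum of that size left 0 of the calls. Among the 17 alternatives that kept the threshold on the adjusted p alone, Grb14 passed in 17 (adjusted p 0.00203 to 0.0277, by edgeR or DESeq2), Grb10 in 10 and Akt2 in 5. Grb10 lost its call without mouse 254 (log2 fold change -0.51, edgeR adjusted p = 0.0568), 257 (-0.49, adjusted p = 0.0614), 265 (-0.45, adjusted p = 0.0580), 303 (-0.45, adjusted p = 0.0707), 290 (-0.49, adjusted p = 0.0604) or 295 (-0.51, adjusted p = 0.0573), and with no filter on low counts. Akt2 lost its call without any 1 of mice 254, 257, 323, 282, 322, 277, 303, 319, 284 and 290, with log2 fold changes of -0.23 to -0.18 and edgeR adjusted p-values of 0.0502 to 0.131. It also lost it with RLE scaling (-0.20, edgeR adjusted p = 0.0529) and with no filter on low counts (-0.20, adjusted p = 0.159). All of these values kept their sign. Markers of other liver cells moved with feeding state as well. Summed CPM of 6 sinusoidal endothelial markers was 146 to 217 in fed and 131 to 137 in fasted NTS WT livers, and 180 to 196 and 130 to 158 in NTS KO livers. That of 5 cholangiocyte markers was 33.4 to 49.7 in fed and 13.7 to 29.6 in fasted livers of both genotypes, and that of 6 stellate cell markers 187 to 265 and 184 to 209. That of 6 Kupffer cell markers was 408 to 483 in fed and 201 to 349 in fasted NTS WT livers, without overlap, whereas in NTS KO livers it was 250 to 349 and 261 to 404. The sums hide differences between single markers. Of the 6 endothelial markers, 5 were lower and 1 higher with fasting in each genotype, with log2 fold changes of -1.15 to 1.17 in NTS WT. Of the 4 cholangiocyte markers tested, 3 were lower and 1 higher in each genotype, and Spp1 alone had 10.7 to 43.5 CPM. The 6 Kupffer cell markers were all lower with fasting in NTS WT, while in NTS KO 4 were higher and 2 lower (-0.47 to 2.95). Among them, Marco alone had 3.69 to 104 CPM. The 6 stellate cell markers were all lower with fasting in both genotypes. None of the markers of these 4 cell types was at 0 in a whole group, and their part in the results was not tested.

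Between genotypes, none of the 10 genes passed the edgeR test in fed livers or in fasted livers, where 0% of all genes tested passed. Without adjustment, 876 of all genes in fed and 685 in fasted livers had an edgeR p under 0.05. DESeq2 called 12 and 1 genes, of which 0 were among the 10. Insr was the gene of the 10 with an unadjusted edgeR p under 0.05 in fed livers, and its edgeR adjusted p was 0.734. It was at 85.2, 80.8 and 66.9 CPM in the fed livers labelled NTS WT and at 119, 111 and 85.3 CPM in those labelled NTS KO. The groups did not overlap, as for 10.7% of all genes, but mouse 319 (85.25 CPM) was only just above mouse 254 (85.21 CPM). The log2 fold change was 0.44 (95% interval 0.12 to 0.75), 1.35-fold, and its adjusted p lay between 0.188 and 1.00 over 12 alternatives. In fasted livers the Insr groups overlapped (79.4 to 94.1 CPM in NTS WT and 88.6 to 106 CPM in NTS KO), with a log2 fold change of 0.16 (-0.15 to 0.48).

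The other 9 genes overlapped between genotypes in fed livers, and all 10 did in fasted livers, beside 12.2% of all genes that did not. How much a genotype difference the data could still hold depended on the gene. For Akt2 the 95% interval ran from -0.25 to 0.21 in fed and from -0.15 to 0.30 in fasted livers (log2), and for Akt1 from -0.37 to 0.13 and from -0.38 to 0.12. For Irs2 it ran from -0.97 to 0.88 and from -0.79 to 1.06. Those of Foxo1 (-0.19 to 0.56 and -0.54 to 0.20) and Foxo3 (-0.21 to 0.60 and -0.41 to 0.40) were intermediate. For Irs1 the fed difference of 0.28 became -0.0020 without mouse 303, and for Pik3r1 the fasted difference of -0.11 became 0.24 without mouse 265. The summed CPM of 6 Kupffer cell markers was 408 to 483 in NTS WT fed livers and 250 to 349 in NTS KO fed livers, and its part in the fed comparison was not tested. Whether the fasting difference itself differed between genotypes was tested as an interaction, and 0 of the 10 genes passed with edgeR (0 also at an unadjusted p under 0.05, and 0 with DESeq2), beside 0% of all genes. Of all 13812 genes tested, 663 had an unadjusted edgeR p under 0.05 in the interaction.

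Further genes of the pathway were read from lists that leave the 10 out. The lists were written with earlier results of these data known, so their counts and medians are descriptions only. Of 32 further core components, 29 had enough counts (Irs3, Irs4 and Foxo6 did not). In NTS WT livers 3 rose and 1 fell with fasting (edgeR adjusted p under 0.05), beside 8.91% and 9.19% of all genes tested. For NTS KO livers the background was 7.70% up and 9.14% down, and 0 core genes passed, with DESeq2 calling 2. An unadjusted edgeR p under 0.05 was found there for 9 of the 29 core genes, beside 4383 of all 13812 genes tested. Mtor, the growth kinase downstream of AKT, rose from 27.8 ± 1.64 to 45.5 ± 5.13 CPM in NTS WT (mean ± SD, n = 3, log2 fold change 0.71, adjusted p = 0.00395 by edgeR). It was at 30.5 ± 3.95 and 40.9 ± 6.17 CPM in NTS KO (0.42, adjusted p = 0.0519). Pdpk1, the kinase that activates AKT, was 0.51 higher in fasted NTS WT livers (edgeR adjusted p = 0.0148), and Gsk3a, a kinase that AKT inhibits, 0.44 higher (adjusted p = 0.0408). Foxo4, another FoxO factor, was lower there, at -0.45 (adjusted p = 0.0352). Their log2 fold changes in NTS KO livers were 0.21, 0.30 and -0.32, and none of these passed. Over 12 alternatives in NTS KO, Mtor passed in 5 (adjusted p 0.0285 to 0.199) and Gsk3a in 1 (0.0365 to 0.437), by edgeR or DESeq2. Pdpk1 and Foxo4 passed there in 0. The median of the list was 0.16 in NTS WT and 0.0027 in NTS KO livers, beside -0.0032 and -0.011 over all genes tested. Leaving out mouse 254 or 282 left 2 and 1 calls in NTS WT, and leaving out mouse 277, 303, 319 or 284 gave 1, 1, 3 and 2 calls in NTS KO. Gsk3a lost its call without mouse 254, 323, 282 or 322 (adjusted p 0.124, 0.112, 0.129 and 0.104), Foxo4 without 257, 323, 265 or 282 (0.118, 0.0817, 0.109 and 0.128) and Pdpk1 without 254 or 282 (0.0720 and 0.0662), all by edgeR.

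Of 22 brakes on the pathway, 3 rose and 2 fell in fasted NTS WT livers, and 2 rose and 2 fell in NTS KO livers. These were 22.7% and 18.2% of the list, near the 18.1% and 16.8% of all genes tested. Trib3, a pseudokinase that binds AKT, rose from 2.53 ± 0.192 to 7.11 ± 0.550 CPM in NTS WT (log2 fold change 1.49, edgeR adjusted p = 0.00557) and from 2.70 ± 1.34 to 8.99 ± 2.93 CPM in NTS KO (1.72, adjusted p = 0.00207). Ptprf, the receptor tyrosine phosphatase LAR, fell from 172 ± 43.2 to 87.6 ± 6.46 CPM in NTS WT (-0.97, adjusted p = 0.00767) and from 182 ± 42.5 to 78.9 ± 19.0 CPM in NTS KO (-1.20, adjusted p = 0.00223). Grb7, of the same adaptor family as Grb10 and Grb14, fell in both genotypes (-0.49, adjusted p = 0.0400, and -0.74, adjusted p = 0.00514, by edgeR). Ppp2ca, a catalytic subunit of the phosphatase PP2A, rose in both (0.42, adjusted p = 0.0236, and 0.47, adjusted p = 0.0155). Sesn2, a sestrin that restrains mTORC1, rose in NTS WT (0.86, adjusted p = 0.0383) and was at 0.75 in NTS KO (adjusted p = 0.0706). The list's median was -0.0087 in NTS WT and -0.031 in NTS KO livers. Its count of calls in NTS WT fell from 5 to 2 without mouse 254 or 282 and to 3 without mouse 257, 265 or 322, and in NTS KO it rose from 4 to 7 without mouse 319. Trib3 and Ptprf passed without each mouse in turn, whereas Grb7, Ppp2ca and Sesn2 each lost their NTS WT call without 4 of the 6 mice or more (Grb7 254, 257, 265, 282 and 322, Ppp2ca 254, 257, 265 and 282, Sesn2 254, 323, 282 and 322), with edgeR adjusted p up to 0.159. Ppp2ca also lost its NTS KO call without mouse 277 or 284 (0.0701 and 0.0597).

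Of 24 genes that FOXO factors activate in liver, 4 rose and 0 fell in NTS WT livers, and 5 rose and 2 fell in NTS KO livers, with medians of 0.18 and 0.26. The called share was 16.7% in NTS WT, beside 18.1% of all genes tested, and 29.2% in NTS KO, beside 16.8%. Mttp, which loads lipid onto apolipoprotein B, rose from 289 ± 42.3 to 548 ± 51.2 CPM in NTS WT and from 259 ± 17.9 to 526 ± 37.4 CPM in NTS KO (0.92 and 1.02, edgeR adjusted p = 0.000755 and 0.000314). Bnip3, a mitophagy receptor, rose in both (1.28 and 1.31), and so did Txnip, an inhibitor of glucose uptake (1.21 and 1.73). G6pc, the last enzyme of gluconeogenesis, whose upstream sequence is shown above, rose in NTS KO from 263 ± 28.1 to 710 ± 333 CPM (1.43, adjusted p = 0.00949) and was at 350 ± 80.3 and 635 ± 176 CPM in NTS WT (0.86, adjusted p = 0.0766). Cdkn1a, a cell cycle inhibitor, rose in NTS WT (1.78, adjusted p = 0.0138), with 0.73 in NTS KO (adjusted p = 0.238). Gadd45a, a stress gene, went the other way, with -1.12 in NTS WT (adjusted p = 0.0788) and -1.54 in NTS KO (adjusted p = 0.0218). Txnip lost its NTS WT call without mouse 257, 323 or 265 (edgeR adjusted p 0.0824, 0.0711 and 0.0693) and Cdkn1a without 257 (0.0538), which left 2 calls. Gadd45a lost its NTS KO call without 319, 284, 290 or 295 (0.0674, 0.0733, 0.0660 and 0.0703). In NTS WT, Gadd45a passed without mouse 265 (-1.78, adjusted p = 0.00896), and in NTS KO, Cdkn1a passed without mouse 319 (1.27, adjusted p = 0.0248). Each passed in that 1 of 12 alternatives alone.

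Most genes that insulin induces in liver fell with fasting in both genotypes. Of 12, 10 fell in fasted NTS WT livers and 11 in NTS KO livers, and 0 rose. These were 83.3% and 91.7% of the list, beside 9.19% and 9.14% of all genes tested that fell. The list's median log2 fold change was -2.10 and -2.90. Srebf1, which encodes the lipogenic factor SREBP-1, fell from 214 ± 96.5 to 28.7 ± 9.89 CPM in NTS WT (-2.90, edgeR adjusted p = 0.000622) and from 236 ± 50.3 to 23.6 ± 5.43 CPM in NTS KO (-3.32, adjusted p = 0.000254). Scd1, the stearoyl-CoA desaturase, fell from 6328 ± 3528 to 607 ± 336 CPM in NTS WT and from 9448 ± 2051 to 763 ± 543 CPM in NTS KO. Insig1, Acly and Pnpla3 also fell in both genotypes, although Pnpla3 missed the threshold in NTS KO without mouse 295 (-4.36, edgeR adjusted p = 0.0528). Pnpla3 was near the floor, with 1 to 9 counts in fasted livers and only 8 in fed NTS WT mouse 323, so its fold changes are imprecise. That mouse also had 2361 CPM of Scd1, against 7509 and 9115 in fed NTS WT mice 254 and 257. Without mouse 323 the interaction of Scd1, -0.25 on the log2 scale, became 0.14. Me1, the malic enzyme, did not pass in either genotype. Between genotypes and in the interaction, 0 genes of the 4 lists passed with edgeR, and 0 with DESeq2. In fed livers 1 core gene, 0 brakes, 2 FoxO-activated and 0 insulin-induced genes had an unadjusted p under 0.05, in fasted livers 3, 1, 0 and 0, and in the interaction 2, 0, 1 and 0. The tested genes of these lists numbered 29, 22, 24 and 12. Over all 13812 genes tested, 876 in fed livers, 685 in fasted livers and 663 in the interaction had an unadjusted edgeR p under 0.05.

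**Figure D4:**
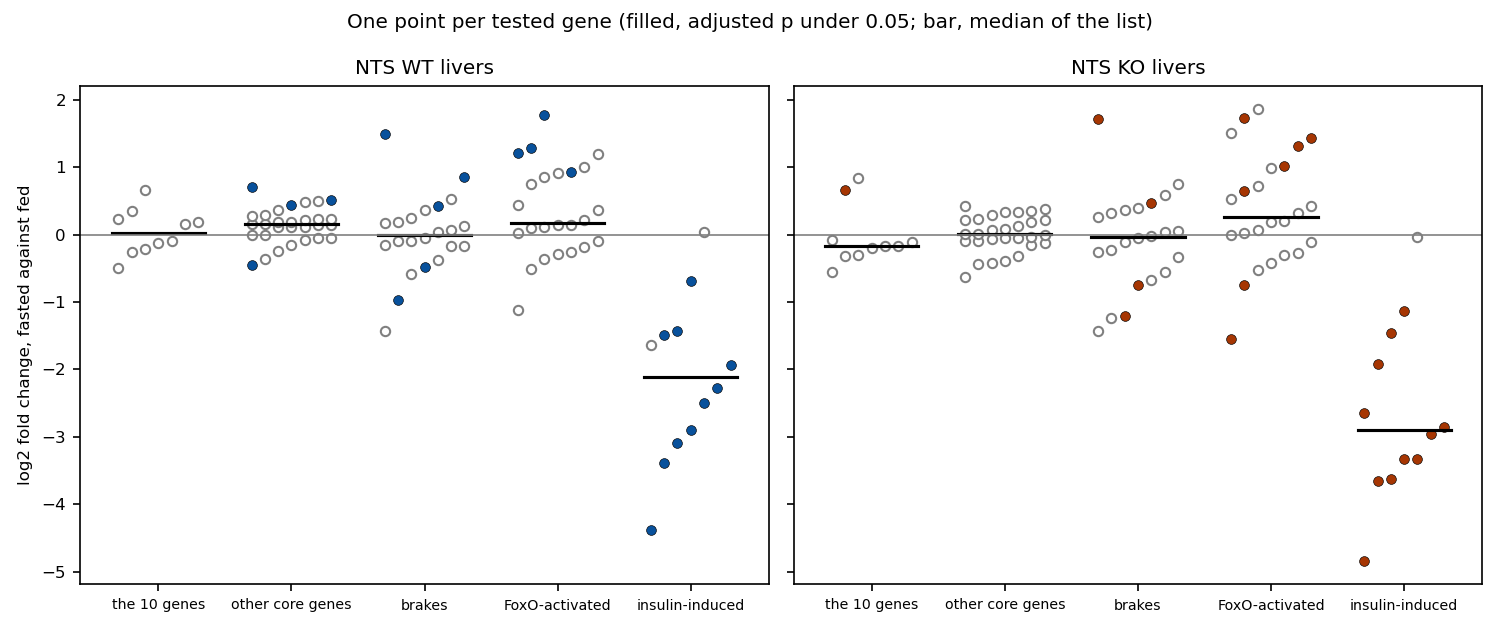
edgeR log2 fold change, fasted against fed, of each tested gene of 5 lists in NTS WT (left) and NTS KO livers (right); filled points have an adjusted p under 0.05, open points do not, and the bar is the list's median. The insulin-induced genes lie far below 0 (medians -2.10 and -2.90), while the 10 insulin signalling and FoxO genes lie between -0.56 and 0.84.

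The gene whose log2 CPM, centred on its own mean, was most like that of Grb14 over the 12 livers was Clmn, with a root mean square difference of 0.16, followed by 4833418N02Rik (0.17). Grb14 itself had an SD of 0.36 over the same livers. The search covered all other genes tested, and the likeness includes the feeding groups.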

How the data were processed

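Total liver RNA of 12 mice was sequenced. The authors deposited 1 table of expected counts per gene (GRCm38), and the submitters' processing notes name Trimmomatic and RSEM. These values are not scaled between mice, and 7.94% of them are not whole. Columns of other samples number 0. Groups were taken from the labels.

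Expected counts were rounded. In R 4.3.3, edgeR 4.0.16 kept 13812 genes (filterByExpr), scaled with TMM and fitted 1 robust quasi-likelihood model with 4 group means. Contrasts were fasted against fed within genotype, NTS KO against NTS WT within feeding state, and their interaction, and the mean fasting difference was added later. Alternatives were DESeq2 1.42.0, RLE and upper-quartile scaling, other filters, the compared mice alone, an added minimum absolute log2 fold change of 1, and leaving out each mouse. The pipeline was tested on simulated data. Transcript lengths came from GENCODE vM39 (99.2% of tested genes), and only lengths were used from it. Named genes were the 10 genes, Nts, up to 6 called genes of each list by mean absolute fasting log2 fold change, and the 2 genes most like a called member. The members and lists were chosen with earlier results of these data known. Depth was 21999647 to 45273069 counts. The mice are separate animals, so p-values weigh each difference against the spread between animals. Litters are not given, and the mice were treated as independent. The values of 1 gene of the insulin-induced list are not reported here.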

Additional observations from a re-analysis of the deposited data

How the results depend on the processing

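Among the 10 genes, the NTS WT fasting differences had the reported sign in 119 of 120 alternative values, those in NTS KO in 117 of 120, the fed and fasted genotype differences in 106 and 110 of 120, the interaction in 151 of 170 and the mean fasting difference in 159 of 170. Sign changes of differences that were not called are given below only where the value moved by more than 1 SE. In each of these a single mouse, given in parentheses, had been left out, and the values without each mouse in turn ranged as follows. In NTS KO fasting Irs1 ranged from -0.43 to 0.12 and Pik3r1 from -0.51 to 0.021 (303). Between fed genotypes Trib3 ranged from -0.38 (277) to 0.33, Irs1 from -0.0020 (303) to 0.54 and Cdkn1a from -0.19 (319) to 0.61. Between fasted genotypes Pik3r1 ranged from -0.26 to 0.24 and Gadd45a from -0.37 to 0.56 (265), G6pc from -0.28 (284) to 0.42 and Scd1 from -0.40 (290) to 0.68. In the interaction Bnip3 ranged from -0.24 (323) to 0.21 and Gadd45a from -0.69 to 0.24 (265). The causes were not tested.

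Counts of calls moved by over 1.5 times as follows. In NTS WT fasting DESeq2 called 7 core and 8 FoxO-activated genes, no filter left 3 brakes, and the compared mice alone gave 2 brakes and 7 FoxO-activated genes. With a log2 fold change of at least 1 there, 0 core genes, 1 brake and 911 of all genes were called. In NTS KO fasting the core list had 1 call with RLE scaling, and 2 with upper-quartile scaling, with DESeq2 and with at least 10 counts in every mouse. With the fold minimum there, 0 of the 10 genes, 2 brakes and 915 of all genes passed. Between fed genotypes DESeq2 called 12 genes and no filter gave 1, between fasted genotypes DESeq2 and the compared mice alone each gave 1, and in the interaction DESeq2 gave 2. For the mean fasting difference, no filter left 1 of the 10 genes, and the fold minimum left 0 of the 10, 0 core, 3 brakes, 6 FoxO-activated and 1082 of all genes.

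Leaving out 1 mouse, calls ranged over all genes from 1224 to 2418 in NTS WT fasting, 1358 to 2631 in NTS KO fasting, 3729 to 4594 in the mean, 0 to 2 between fed genotypes and 0 to 1 in the interaction. For the 10 genes they ranged from 0 to 1 in NTS KO and 1 to 4 in the mean. For the lists in NTS WT, NTS KO and the mean, they were 1 to 5, 0 to 3 and 6 to 10 (core), 2 to 4, 3 to 7 and 6 to 11 (brakes), 2 to 5, 6 to 9 and 10 to 13 (FoxO-activated) and 7 to 9, 8 to 11 and 11 to 11 (insulin-induced). The log2 Irs2 to Irs1 ratio difference ranged from 0.17 to 0.85 in NTS WT and 0.46 to 1.22 in NTS KO. No paired analysis was possible because the labels call the mice littermates but do not give the litter of each, and their numbers are not shared between groups.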
